A study of Mus musculus with 8 samples.

Results

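The peptidases described here are 9 enzymes that finish the digestion of protein in the small intestine: Anpep, Enpep, Dpp4, Xpnpep2, Mep1a, Mep1b, Ace, Naaladl1 and Cndp2. They were taken by name, as every probe set whose single gene symbol in the array's annotation was one of the 9. This gave 15 of the 45037 probe sets tested and 9 of the 18193 genes named on the array. Dpp4 had 4 probe sets, Mep1a, Ace and Cndp2 had 2 each, and the other genes had 1 each.

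Transcripts were measured in the 5 cm of small intestine next to the stomach, in male mice aged 6 months. The 4 knockout mice were Pdx1flox/flox;VilCre, in which the exon for the homeodomain of Pdx1 is removed by Cre under a villin gene promoter, and the 4 control mice were Pdx1flox/flox brothers without Cre, so all 8 mice carried the floxed alleles. All ate a standard diet. The villin promoter is active in gut epithelium, so Pdx1 is lost there and not in the muscle, vessels or immune cells that the tissue also holds. Each mouse gave 1 Affymetrix array. In whole tissue, fewer cells of a type and less RNA per cell cannot be told apart.

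Pancreatic proteases cut dietary protein into short peptides. Peptidases anchored in the microvillus membrane of enterocytes, the absorptive cells of the villus, then trim these peptides to amino acids, dipeptides and tripeptides. Amino acid transporters and a peptide transporter carry the products into the cell, and peptidases of the cytosol split what remains. Most of these enzymes hold zinc at the active site; Dpp4 is a serine peptidase.

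Pdx1 is a homeodomain protein, and such proteins bind short AT-rich DNA sequences with the core TAAT. The core was searched in windows of 6 members: Anpep, Enpep, Dpp4, Xpnpep2, Mep1a and Ace. Mep1b, Naaladl1 and Cndp2 were not among them. The promoters of 3 of them are shown because they span the range of matches within those 6, from none to 4. The sequences are from RefSeq on GRCm38.p6 and run from 250 bases before to 50 bases after the annotated start, 5′ to 3′ on the strand of the gene. TAAT was searched on both strands and every match is in capitals. The windows are chr7:79848161-79848460 on the minus strand for Anpep, chr2:62412182-62412481 on the minus strand for Dpp4 and chr17:43502724-43503023 on the minus strand for Mep1a.
Anpep: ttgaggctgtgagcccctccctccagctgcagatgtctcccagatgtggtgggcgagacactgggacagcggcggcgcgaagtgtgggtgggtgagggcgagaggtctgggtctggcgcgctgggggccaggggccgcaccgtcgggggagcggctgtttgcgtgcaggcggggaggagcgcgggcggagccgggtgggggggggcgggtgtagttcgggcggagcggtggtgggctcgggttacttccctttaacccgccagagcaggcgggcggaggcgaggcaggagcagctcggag
Dpp4: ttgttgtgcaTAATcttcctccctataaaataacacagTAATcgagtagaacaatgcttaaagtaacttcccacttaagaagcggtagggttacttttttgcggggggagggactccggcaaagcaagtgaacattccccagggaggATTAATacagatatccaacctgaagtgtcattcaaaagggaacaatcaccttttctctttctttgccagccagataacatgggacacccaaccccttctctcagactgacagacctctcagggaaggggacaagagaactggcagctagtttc
Mep1a: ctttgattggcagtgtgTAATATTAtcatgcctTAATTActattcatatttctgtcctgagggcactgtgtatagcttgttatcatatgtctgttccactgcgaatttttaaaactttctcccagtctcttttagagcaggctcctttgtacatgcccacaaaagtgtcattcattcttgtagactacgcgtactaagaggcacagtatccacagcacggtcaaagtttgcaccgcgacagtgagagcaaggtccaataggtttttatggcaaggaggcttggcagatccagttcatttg
The Anpep window held no match, and neither did that of Enpep. Dpp4 and Mep1a held 4 each, some overlapping on opposite strands: in Dpp4 they began at positions -240, -212, -103 and -101 from the start, and in Mep1a at -233, -229, -217 and -215. Of the 32851 promoter windows of this length in the RefSeq table, 58.0% held TAAT at least once, so its presence is common. That share does not say how many windows held 4. A match describes letters only. Anpep is known to use separate promoters in epithelial and myeloid cells, and the start used in these samples was not measured.

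None of the 15 probe sets passed the test for a change between knockout and control. The test was limma's moderated test on the deposited log2 values, two-sided, with Benjamini-Hochberg adjustment over all probe sets and a threshold of 0.05. The lowest adjusted p was 0.476, for Anpep, and 0 also passed in an ordinary linear model. Across the array 19 probe sets passed, 0.0422% of those tested, and 2 of them, 0.00444%, were higher in the knockout. Without adjustment, 7 probe sets of 6 genes had a p under 0.05, all with the higher mean in the knockout, where 3.50% of all probe sets lay on that side of this threshold. With single samples left out, that count ran from 4, without control 4 or without knockout 4, to 10, without knockout 3.

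The values nevertheless all lay on the same side. All 15 probe sets had the higher mean in the knockout, with log2 changes from 0.01 to 0.55 and a median of 0.33, against a median of 4.75e-05 over all probe sets. Over the array 50.0% of probe sets had a change above 0, but among the 9158 probe sets with a mean of at least 8, where most members lie, the share was 66.1% and their median change was 0.04. With a repeated quantile normalization that share was 49.7%, and 14 of the 15 members stayed above 0, Naaladl1 being the exception. In 4 probe sets, of Anpep, Mep1b and Cndp2, every knockout sample read above every control sample. So did 2.10% of all probe sets, 3.67% of those with a mean of at least 8, and 7 of 19 enterocyte marker genes. No 95% interval reached a log2 change of -1, and 3 of the 15 reached 1: those of both Mep1a probe sets and of a dim Dpp4 probe set.

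**Figure D1:**
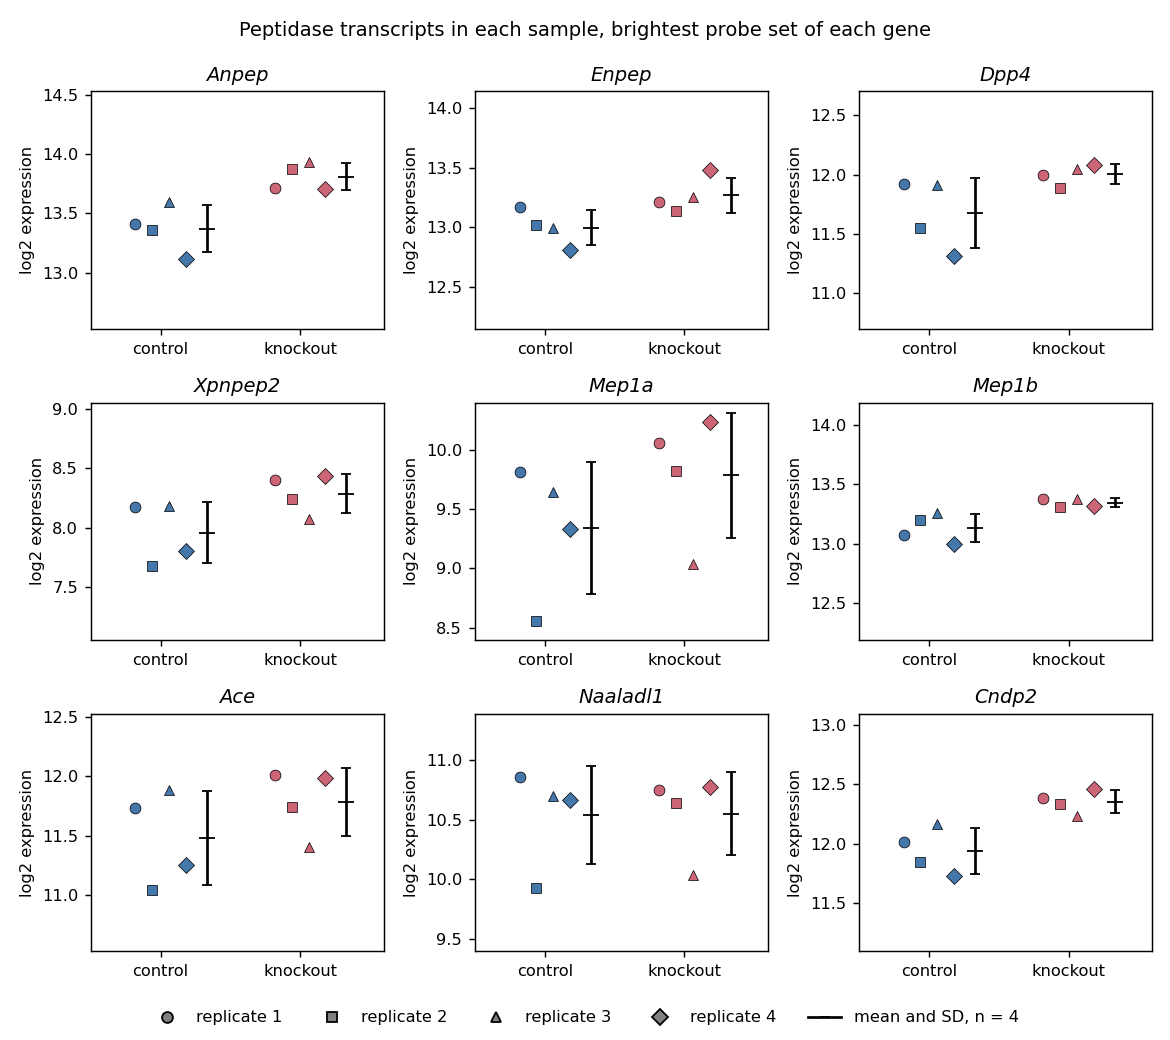
Log2 expression in each of the 8 samples for the brightest probe set of each of the 9 genes, with blue symbols for control and red for knockout, a symbol shape per replicate number, and bars for mean and SD (n = 4). Each panel spans the same log2 range. Knockout and control symbols are separate for Anpep, Mep1b and Cndp2, and control 2 and knockout 3 lie lowest of their groups for Mep1a, Ace, Naaladl1 and Xpnpep2.

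Anpep, aminopeptidase N, removes neutral amino acids from the start of peptides and is among the most abundant proteins of the brush border. Its probe set, 1421424_a_at, read 13.41, 13.36, 13.60 and 13.12 on the log2 scale in controls 1 to 4. It read 13.71, 13.87, 13.93 and 13.71 in knockouts 1 to 4. The lowest knockouts, 1 and 4, were above the highest control, 3, so the groups did not overlap. The group means were 13.37 ± 0.20 in the control and 13.81 ± 0.11 in the knockout (SD, n = 4 each), a log2 difference of 0.43 or 1.35-fold, with a standard error of 0.10. Its 95% interval ran from 0.21 to 0.66, and the adjusted p in limma was 0.476.

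Enpep, aminopeptidase A, takes acidic residues off the start of peptides and also shortens angiotensin II. It read 13.17, 13.01, 12.99 and 12.81 in the controls. In the knockouts it read 13.21, 13.14, 13.26 and 13.48. Control 1 was above knockout 2, so the groups overlapped, although 3 of the 4 knockouts were above every control. The difference was 0.27, with an interval from 0.06 to 0.49 (adjusted p = 0.648 in limma).

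Xpnpep2, membrane aminopeptidase P, frees a residue that stands before proline, a bond that most peptidases cannot cut. Controls 1 to 4 read 8.18, 7.67, 8.18 and 7.80. Knockouts 1 to 4 read 8.40, 8.24, 8.07 and 8.43. Knockout 3 fell among the controls and the other 3 knockouts were above all of them. The difference was 0.33, with an interval from 0.04 to 0.62 (adjusted p = 0.676 in limma).

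Dpp4, dipeptidyl peptidase 4, removes dipeptides that end in proline or alanine and inactivates the incretins GIP and GLP-1; it is also carried by T cells as CD26. Its brightest probe set, 1416697_at, read 11.92, 11.55, 11.91 and 11.31 in the controls. The knockouts read 12.00, 11.89, 12.05 and 12.08. The knockouts were close together (SD 0.087) and the controls were spread (SD 0.29), and knockout 2 lay below controls 1 and 3. The difference was 0.33, with an interval from 0.04 to 0.62 (adjusted p = 0.676 in limma). It was 0.21 without control 4 and 0.41 without control 1.

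The other 3 Dpp4 probe sets differed among themselves. Probe set 1459973_x_at, whose suffix marks probes that may also read other sequences, had a difference of 0.47 with an interval from -0.24 to 1.18. That difference was 0.74 without control 1, 0.75 without knockout 1 and 0.27 without knockout 3. The probe set ranged from 7.05 to 8.21 in the controls and from 7.00 to 8.45 in the knockouts, and the lowest of all 8 samples was knockout 1. Probe sets 1441342_at and 1438279_at had differences of 0.02 and 0.01, with intervals from -0.39 to 0.44 and from -0.21 to 0.24. The sign of each of these last differences changed when single samples were left out.

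The meprins are zinc endopeptidases of the brush border that cut inside proteins and peptides. Mep1a and Mep1b encode the alpha and beta subunits, which are similar in sequence and join to each other. Mep1b read 13.08, 13.20, 13.26 and 13.00 in the controls. In the knockouts it read 13.38, 13.31, 13.38 and 13.32. All 4 knockouts were above all 4 controls and lay within a narrow range (SD 0.037, against 0.12 in the control). The difference was small, 0.21 or 1.16-fold, with an interval from 0.05 to 0.38 (adjusted p = 0.629 in limma).

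Mep1a varied far more between mice of the same genotype. Its brighter probe set, 1450719_at, read 9.81, 8.56, 9.65 and 9.33 in the controls. The knockouts read 10.06, 9.82, 9.04 and 10.23. Control 2 and knockout 3 were the lowest of their groups, and the SD was 0.56 in the control and 0.53 in the knockout. The difference of 0.45 was smaller than either SD, and its interval ran from -0.21 to 1.11 (adjusted p = 0.787 in limma). It was 0.19 without control 2 and 0.70 without knockout 3. The second probe set, 1447252_s_at, gave 0.55 with an interval from -0.16 to 1.26 and had the same lowest samples. Its difference was 0.29 without control 2 and 0.81 without knockout 3.

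Ace, angiotensin-converting enzyme, takes dipeptides off the end of peptides and is carried by enterocytes as well as by the endothelium of vessels. Its brighter probe set, 1427034_at, read 11.73, 11.04, 11.89 and 11.26 in the controls. The knockouts read 12.01, 11.74, 11.40 and 11.98. The groups overlapped, and control 2 and knockout 3 were again the lowest. The difference was 0.31 on this probe set, with an interval from -0.13 to 0.74, and 0.39 on 1451911_a_at, with an interval from -0.04 to 0.82 (adjusted p = 0.779 and 0.732 in limma). Without control 2 the differences were 0.16 and 0.24, and without control 3 they were 0.44 and 0.57.

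Naaladl1 is a membrane peptidase of the family of glutamate carboxypeptidase II. It read 10.86, 9.93, 10.70 and 10.67 in the controls. The knockouts read 10.75, 10.64, 10.04 and 10.78. Control 2 and knockout 3 stood apart at the bottom, and the other 3 samples of each group covered the same range. The difference was 0.01, with an interval from -0.46 to 0.49 (adjusted p = 0.993 in limma), and its sign depended on which samples were included.

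Cndp2 differs from the others in that it works in the cytosol, where it splits dipeptides that have been taken up. Its brighter probe set, 1448263_a_at, read 12.01, 11.85, 12.17 and 11.73 in the controls. The knockouts read 12.38, 12.34, 12.23 and 12.46. The second probe set, 1460177_at, read 11.78, 11.66, 11.74 and 11.51 in the controls, and 11.96, 11.93, 11.96 and 12.12 in the knockouts. On both probe sets every knockout was above every control. The differences were 0.42 and 0.32, with intervals from 0.19 to 0.64 and from 0.15 to 0.50 (adjusted p = 0.480 and 0.494 in limma). Cndp2 was thus the only member with more than 1 probe set on which all of them separated the groups.

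**Figure D2:**
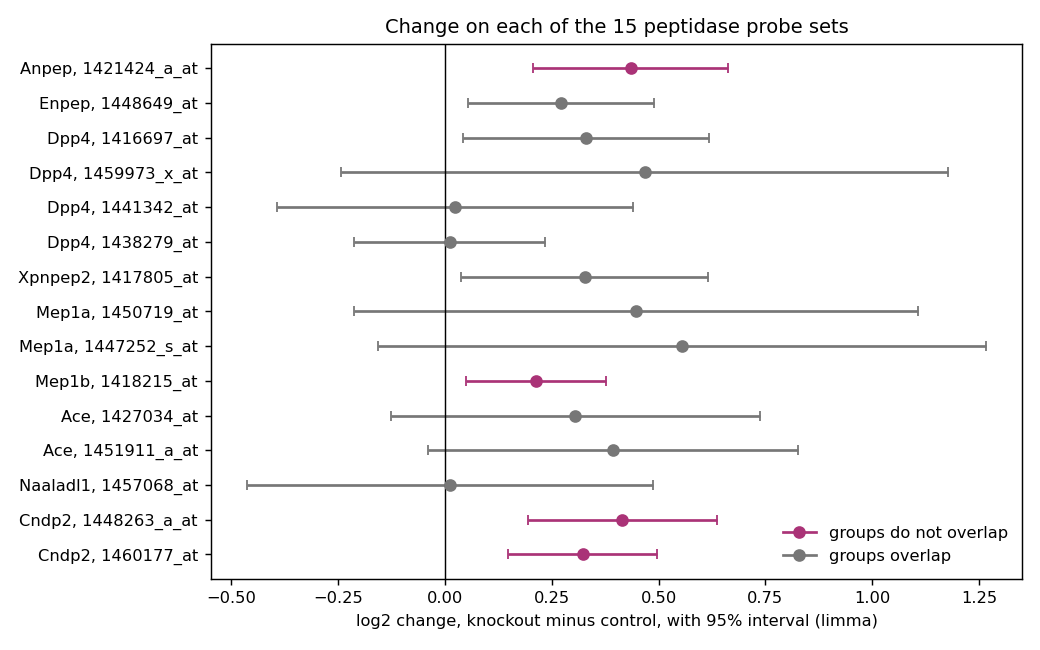
Log2 change (knockout minus control) with its 95% interval from limma for each of the 15 probe sets, coloured by whether the 4 knockout and 4 control values overlap. All 15 points lie above 0, from 0.01 to 0.55, and the interval excludes 0 in 7 of them before any adjustment for the number of probe sets.

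The members differed in how far mice of the same genotype spread. The SD in the control ran from 0.12 for Mep1b to 0.56 for Mep1a, in a graded order. Measured from the mean of its own group, Mep1a read -0.78 in control 2 and -0.75 in knockout 3, Naaladl1 read -0.61 and -0.51, and Ace read -0.44 and -0.38. Xpnpep2 had smaller deviations of the same sign, -0.28 and -0.21. On the brightest probe sets of Anpep, Mep1b, Enpep, Dpp4 and Cndp2 the same samples lay within 0.13 of their group means. The dimmer Dpp4 probe sets differed. On 1441342_at both samples were the lowest of their groups, at 6.90 and 6.93 against means of 7.27 and 7.29. On 1438279_at only knockout 3 was the lowest of its group, and on 1459973_x_at it was the highest knockout, at 8.45. Cndp2, with a small spread, still had its lowest knockout in knockout 3 on its brighter probe set, at -0.12 against an SD of 0.097. On its second probe set, 1460177_at, the lowest knockout was knockout 2, at 11.93, and knockout 3 read 11.96. Deviations of Cndp2 from the group means, on the brighter probe set, correlated with those of Ace (Pearson's r = 0.875). This pattern was seen in the values and was not tested.

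T cell markers were also highest in these samples. The score of 11 T cell markers, the average over the list of how far each gene lay from its own 8-sample mean in log2 units, was 0.29 in control 2 and 0.68 in knockout 3, the highest of each group, and 9 of the 11 were highest of all samples in knockout 3. Enterocyte markers differed between these samples. Their score was the lowest of each group, at -0.17 in control 2 and -0.07 in knockout 3. In control 2, 2 of the 19 markers lay above their 8-sample means, and 8 had their lowest control value there. In knockout 3, 11 of the 19 lay above their 8-sample means and 7, Vil1 and Krt20 among them, were highest of all samples. Another 9 had their lowest knockout value in knockout 3. Apob lay furthest below its mean there, at -0.98. The score of 5 ileum and colon markers was -0.22 and -0.11, which came from Aqp8 alone, at -1.33 and -0.61; without it the score was 0.05 and 0.02. The score of 6 duodenum and jejunum markers was also the lowest of its group in both samples, at 0.10 and -0.42. In control 2, 4 of the 6 lay above their means, and without Lct, at -0.72, the score was 0.26. In knockout 3, 1 of the 6 lay above its mean, and without Slc40a1, at -1.04, the score was -0.29. Slc40a1 was lower in every knockout than in any control, and its lowest knockout was knockout 2, at 10.105, with knockout 3 at 10.371. Lct and Fabp1 are also in the enterocyte list. The part of these in the peptidase values was not tested.

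Without control 2 and knockout 3 together 0 probe sets passed and 14 of 15 were above 0. Mep1a was at 0.44 on its brighter probe set, Xpnpep2 at 0.30, Ace at 0.29 and Naaladl1 at -0.02. In 6 probe sets of 5 genes the groups then did not overlap, where 5.71% of all probe sets did so with the knockout higher. Since these samples held the lowest values of Xpnpep2 and Mep1a, leaving them out narrows those groups by construction.

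**Figure D3:**
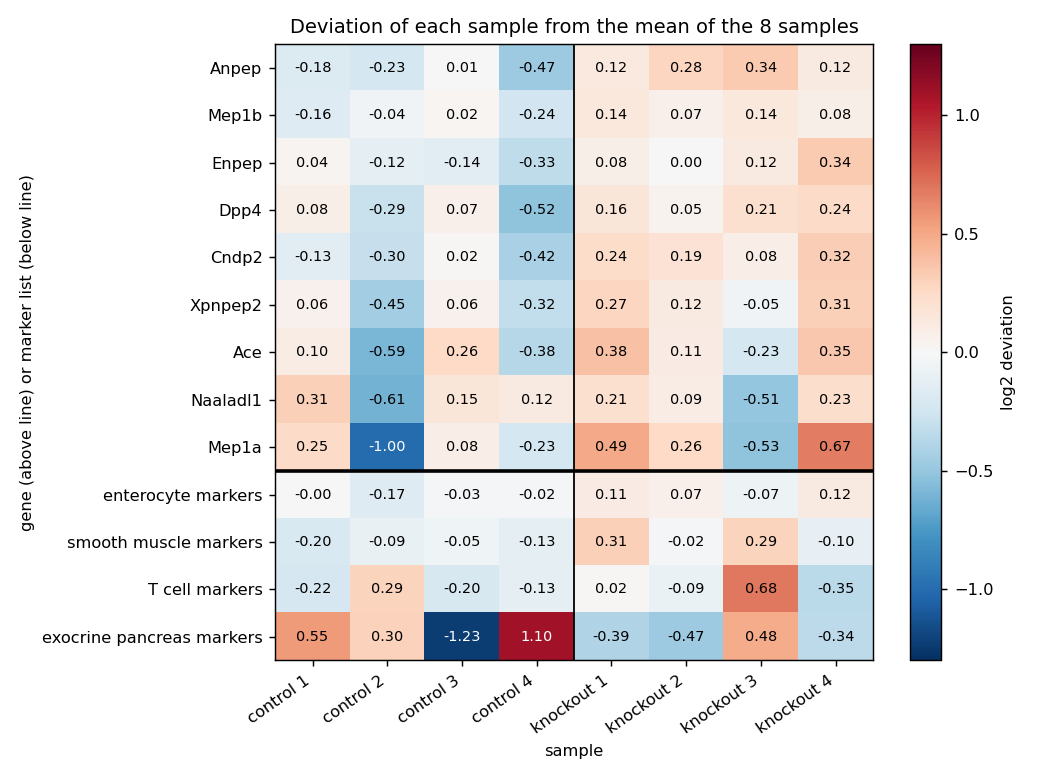
Log2 deviation of each sample from the mean of the 8 samples, for the 9 genes (rows above the line, brightest probe set) and for 4 marker lists (below it, mean over the list). Mep1a, Naaladl1 and Ace are lowest in control 2 and, among the knockouts, in knockout 3, while Anpep, Mep1b and Enpep are not.

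Averaged over the 9 genes, the score was 0.04, -0.40, 0.06 and -0.31 in controls 1 to 4 and 0.23, 0.13, -0.05 and 0.30 in knockouts 1 to 4. Knockout 3 was below controls 1 and 3, so the groups overlapped. The difference of the group means was 0.31, between 0.22 and 0.38 with each sample left out in turn. Since the genes were chosen with results known, no p is given for this score.

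Of the 6 genes most like the members across the 8 samples after the group means were removed, none passed the test between the groups. They were Galm (Pearson's r = 0.983), a galactose mutarotase, Gosr2 (0.982), of vesicle transport, Usp2 (0.977), a deubiquitinase, Ubxn6 (0.970), Gnpda1 (0.969), which breaks down glucosamine phosphate, and Gdpd2 (0.964). They are the top of 5776 genes with a mean of at least 8, and with so few samples a high r is easily found. The members did not share 1 profile: r with the mean of the other 8 members was 0.996 for Xpnpep2 and 0.872 for Cndp2, but 0.164 for Anpep and 0.0944 for Mep1b. The likeness is therefore to the mean of the 9, in which the members with the largest spread weigh most, and not to each member.

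Peptidases outside the 9 were taken from a list of 34 genes that also holds the peptide transporters, of which 31 had a named probe set. None of the 31 passed in either direction, and the lowest adjusted p was 0.420 in limma, where 0.0660% of all genes passed. Without adjustment 3 higher and 2 lower genes had a p under 0.05, where 3.63% of all genes were on the higher side of it, and 0 passed in the ordinary linear model too. In 1 gene every knockout read above every control, as in 2.28% of all genes. In 1 other, Folh1, every knockout read below every control. The share of all genes on the lower side was not counted for either measure. Of the 31, 20 had a change above 0, 64.5% of them, beside 51.6% of all genes, and their median was 0.04 against 4.57e-03 over all genes. Among probe sets with a mean of at least 8, 66.1% were above 0 and the median was also 0.04. With a repeated quantile normalization 16 of the 31 were above 0.

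Lap3, leucine aminopeptidase of the cytosol, had the lowest p of that list. It read 11.72, 11.61, 11.74 and 11.33 in the controls and 11.93, 12.02, 12.14 and 12.08 in the knockouts, with no overlap. The difference was 0.44, with an interval from 0.23 to 0.66 (adjusted p = 0.420 in limma). Folh1, glutamate carboxypeptidase II, came next at -0.20, but its means of 3.10 and 2.90 lay below the array medians.

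A pair of further genes from the list was chosen after their values were seen, for their place in protein digestion. Slc15a1, the apical transporter that takes up dipeptides and tripeptides, read 10.00, 9.40, 9.97 and 9.21 in the controls and 10.21, 9.93, 10.17 and 10.20 in the knockouts. Knockout 2 was below controls 1 and 3, and the difference was 0.48 with an interval from 0.11 to 0.86 (adjusted p = 0.642 in limma). Tmprss15, enteropeptidase, the duodenal enzyme that activates trypsinogen, had the lower mean in the knockout, at 8.66 ± 0.27 against 9.03 ± 0.30 in the control (SD, n = 4 each). That difference was -0.37, with an interval from -0.73 to -0.01 (adjusted p = 0.694 in limma), and the groups overlapped.

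**Figure D4:**
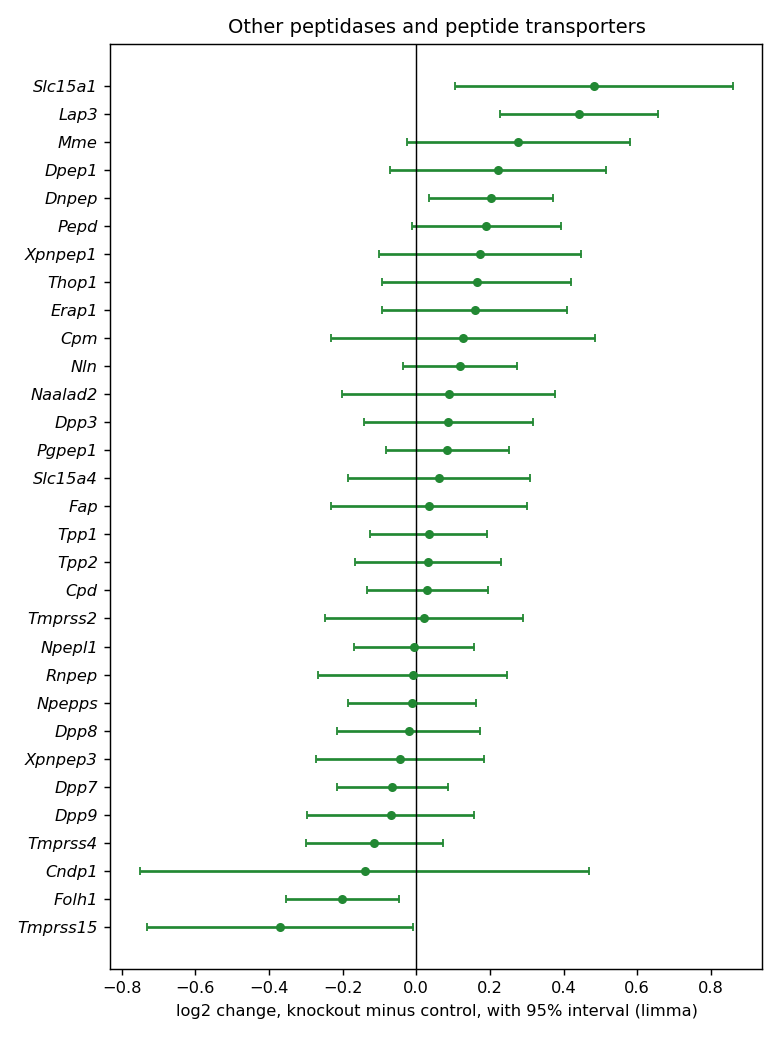
Log2 change (knockout minus control) with its 95% interval from limma for 31 other peptidases and peptide transporters, ordered by the change. The points run from Tmprss15 at -0.37 to Slc15a1 at 0.48, and 20 of the 31 lie above 0.

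The targeted gene and the tissue markers bear on how these values are read. Pdx1 was lower in every knockout than in any control on both of its probe sets, and on the log2 scale it fell by 2.59 on the brighter and fell by 1.85 on the dimmer (adjusted p = 4.16e-04 and 0.00107 in limma). Vil1, whose promoter drives Cre, read 12.60 ± 0.092 in the control and 12.79 ± 0.059 in the knockout (SD, n = 4 each). It did not pass (adjusted p = 0.660 in limma), but every knockout was above every control. Its difference was 0.19, with an interval from 0.03 to 0.34. The enterocyte list, Vil1 included, had 17 of 19 markers above 0 with a median of 0.12, and none passed. Its brightest probe sets averaged 13.03 to 13.20 in the controls and 13.13 to 13.32 in the knockouts. Eps8l3 and Krt20, with the lowest p, were at 0.25 and 0.22. In 7 of the 19 every knockout read above every control, and in 1, Alpi at -0.22, every knockout read below. Of the markers of ileum and colon, Fabp6, Slc10a2, Car1 and Hoxb13 lay below the array medians. Of 6 duodenum and jejunum markers 1, the iron exporter Slc40a1, fell by 1.78 (adjusted p = 0.00143 in limma). Smooth muscle markers were above 0 in 12 of 12 cases (median 0.21), exocrine pancreas markers in 0 of 13 (median -0.22), endothelium and pericyte markers in 10 of 12 (0.08), T cell markers in 9 of 11 (0.07), macrophage markers in 11 of 12 (0.07) and crypt markers in 5 of 9 (0.01). Single genes of these lists did not pass. The pancreas score ran from -1.23 to 1.10 in the controls and from -0.47 to 0.48 in the knockouts. The highest of the 8 samples was control 4. On their brightest probe sets Anpep, Enpep, Dpp4, Mep1b and Cndp2 had their lowest value there. No other Dpp4 probe set did, and 1438279_at was highest there, at 6.82. Control 1 had the next highest score, 0.55, and the highest control value of Enpep and Dpp4 on these brightest probe sets. Control 3 had the lowest score and the highest control value of Anpep, Mep1b and Cndp2. The part of these cell types in the peptidase values was not tested.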

How the data were processed

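RNA from 8 samples was labelled with a 3' amplification kit and hybridised to Affymetrix arrays, per the labels' protocols. The authors deposited 1 table of log2 expression values. The submitters' processing notes list Partek 6.4 without its role, and how background, summary and normalization were done is not given in the sources used here. That values are log2 was read from their range (2.55 to 14.83; array medians 5.23 to 5.28), so a shift of all transcripts could not be seen, and the table has no detection calls. Arrays have no read depth; their number limits the precision. All 15 member probe sets read above the array medians in every sample, and no filter was applied.

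Of 45101 probe sets, 64 array controls were left out. Probe sets were named from GEO's annotation of the array: 34945 had 1 symbol, 932 several and 9160 none. All 9 members matched the RefSeq table by Entrez identifier. Knockout minus control was fitted with limma 3.58.1 in R 4.3.3 without covariates. Standard errors and 95% intervals are from that fit, and intervals are not adjusted for the number of probe sets. A gene was represented by its brightest probe set in lists and scores. The script was tested on simulated data.

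The members and lists were chosen with earlier results of these data known. All members were named, with Pdx1 and Vil1 as checks, the changed genes of each list or up to 2 with the lowest p, and the 6 genes most like the members. The labels call the samples biological replicates and brothers of a litter, and do not say whether numbers pair mice. Alternatives were a replicate block, other normalizations, filters, floors, priors and weights, an ordinary linear model, and samples left out.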

Additional observations from a re-analysis of the deposited data

Results flagged for a closer look

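A sample stood far from the other 3 of its group in 7 of 64 checks, where chance gives about 1 in 20 groups of 4. The checks share samples and genes, so they are not independent. Dpp4 on probe set 1459973_x_at read 8.21 in control 1, where the next control read 7.19. Cndp2 on probe set 1460177_at read 12.12 in knockout 4, and the next knockout read 11.96. Slc15a1 read 9.93 in knockout 2, below the next at 10.17.

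Among the marker scores, the enterocyte score was -0.17 in control 2, with the next control at -0.03, and the ileum and colon score was -0.22 in the same sample, with the next at 0.04. The latter came from Aqp8, at -1.33 from its mean, and was 0.05 without that gene. The exocrine pancreas score was 0.48 in knockout 3, against -0.34 in the next knockout. The endothelium and pericyte score was 0.15 in control 4, against -0.10 in the next control.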

How the results depend on the processing

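No member probe set and none of the 31 other peptidases passed under any alternative run, including an adjusted p threshold of 0.10; the count was 0 with each sample left out in turn (lowest 0, highest 0). Over the 17 alternative fits of 15 probe sets, 242 of 255 values kept their direction and 13 reversed, and the lowest adjusted p was 0.287. The 12 probe sets that never reversed include all those of Anpep, Enpep, Xpnpep2, Mep1a, Mep1b, Ace and Cndp2. With each sample left out in turn, Dpp4 ran from -0.12 to 0.17 on 1441342_at and from -0.058 to 0.085 on 1438279_at, and Naaladl1 from -0.19 to 0.18. Naaladl1 was also at -0.029 with a repeated quantile normalization and -0.018 without control 2 and knockout 3. The cause was not tested. The labels do not say that numbers pair mice. Deviations of same-numbered samples from their group means correlated at -0.09, -0.12, -0.18 and 0.08, and the highest of the other pairs was 0.597, between control 2 and knockout 3, so the numbers were not used as pairs. With the replicate block 0 members passed (lowest adjusted p = 0.506). The score over the 9 genes differed by 0.30 when all probe sets of a gene were averaged and by 0.29 without control 2 and knockout 3. With 4 arrays a group, the widest interval spanned -0.16 to 1.26, on Mep1a.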
